A study of Mus musculus with 617 samples.

Results

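The 8 genes described here encode subunits of Polycomb repressive complex 2 (PRC2): Ezh2, Ezh1, Eed, Suz12, Jarid2, Aebp2, Mtf2 and Phf19. They were chosen by name, and all 8 were among the 43628 genes listed in each of the 4 tables of the series. RNA of single mouse cells was measured with SMART-seq2, which copies whole transcripts of picked cells. The values were FPKM, fragments scaled to transcript length and to the fragments of the library, so levels of different genes can be set side by side per length.

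The cultured cells came from 1 female and 1 male embryonic stem (ES) cell line, both from crosses of C57BL/6J mothers with CAST/EiJ fathers. For either line there were 4 states: in 2i and LIF (60 female and 51 male cells), in serum and LIF (68 and 52), as epiblast stem cells in Activin A and FGF2, labelled Epi (79 and 63), and after embryoid bodies with retinoic acid and the smoothened agonist SAG, labelled motor neuron (39 and 35), a protocol that also gives, per the labels, interneurons. A further female Epi culture of 7 passages gave 41 cells. Embryos of the same cross gave 23 inner cell mass (ICM) cells on day E3.5, and 23 cells labelled epiblast on day E4.5, with no sex labelled. Embryos of 2 C57BL/6J parents gave 20 female and 63 male epiblast cells at E5.5. The labels name no targeted allele in any group. Because each line is the only one of its sex, line and sex cannot be told apart. A culture, not a cell, was taken as the sample, and 1 culture of each line stood for a state.

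PRC2 methylates lysine 27 of histone H3, a mark of silenced developmental genes. Ezh2 or Ezh1 carries the methyltransferase domain, Eed binds the finished mark and stimulates the enzyme, and Suz12 holds the complex together. Accessory subunits define its forms: Jarid2 and Aebp2 belong to PRC2.2, while the Polycomb-like proteins Mtf2 and Phf19 belong to PRC2.1. In ES cells the core subunits are dispensable for self-renewal in culture but are needed for orderly differentiation.

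All 8 genes are autosomal and protein coding. In GENCODE vM21 (GRCm38, the build of the authors' mm10) they lie at chr6:47530139-47595341 on the minus strand (Ezh2), chr11:101191115-101226463 minus (Ezh1), chr7:89954654-89980983 minus (Eed), chr11:79993106-80034123 plus (Suz12), chr13:44729474-44921643 plus (Jarid2), chr6:140622663-140678472 plus (Aebp2), chr5:108065674-108109004 plus (Mtf2) and chr2:34893757-34914026 minus (Phf19). For Ezh2, Eed, Suz12 and Mtf2, between 2.61% and 6.93% of the exon bases overlap a gene on the other strand, whose reads could not be told apart if the counting ignored strand, which is not given in the sources used here.

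The promoters of the catalytic pair, of Suz12 and of Phf19 are shown because Ezh2, Suz12 and Phf19 are the 3 members with an E2F core in the window, and Ezh1, the alternative enzyme, is shown beside Ezh2 as a window without one. Each sequence is a RefSeq window of 300 bases (250 before to 50 after the start, GRCm38.p6), read 5′ to 3′ on the gene's strand: chr6:47594981-47595280 for Ezh2, chr11:79992856-79993155 for Suz12, chr2:34913927-34914226 for Phf19 and chr11:101226414-101226713 for Ezh1. Capitals mark an E2F core, TTCCCGC or TTGGCGC on either strand.
Ezh2: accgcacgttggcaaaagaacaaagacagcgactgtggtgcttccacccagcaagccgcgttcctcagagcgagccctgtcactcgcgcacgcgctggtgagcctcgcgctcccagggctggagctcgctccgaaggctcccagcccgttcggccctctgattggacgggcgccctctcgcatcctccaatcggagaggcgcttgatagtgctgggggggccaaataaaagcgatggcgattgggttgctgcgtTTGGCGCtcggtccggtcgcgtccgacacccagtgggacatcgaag
Suz12: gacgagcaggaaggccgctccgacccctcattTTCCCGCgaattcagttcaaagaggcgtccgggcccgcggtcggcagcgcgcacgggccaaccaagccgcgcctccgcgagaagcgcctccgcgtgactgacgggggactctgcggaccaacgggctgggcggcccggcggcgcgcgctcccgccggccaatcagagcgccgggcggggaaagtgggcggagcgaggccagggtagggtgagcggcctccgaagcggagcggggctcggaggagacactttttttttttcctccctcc
Phf19: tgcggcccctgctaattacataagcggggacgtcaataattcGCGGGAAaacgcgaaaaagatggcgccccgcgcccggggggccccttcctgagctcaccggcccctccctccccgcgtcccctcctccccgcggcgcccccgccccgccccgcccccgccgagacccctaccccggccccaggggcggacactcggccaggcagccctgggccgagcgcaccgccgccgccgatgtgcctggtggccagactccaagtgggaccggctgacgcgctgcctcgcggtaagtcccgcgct
Ezh1: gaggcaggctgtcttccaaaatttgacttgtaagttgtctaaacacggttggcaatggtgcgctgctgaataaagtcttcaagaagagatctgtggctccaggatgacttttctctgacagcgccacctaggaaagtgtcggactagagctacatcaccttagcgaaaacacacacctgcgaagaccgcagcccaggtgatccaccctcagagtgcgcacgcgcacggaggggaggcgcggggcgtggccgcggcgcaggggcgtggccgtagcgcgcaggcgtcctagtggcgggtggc
The E2F core letters were in windows of 3 of the 8 genes, Ezh2, Suz12 and Phf19 (in Phf19 as the reverse complement), against 6.81% of all 32851 windows of the table. The cell cycle homology letters TTTGAA were in windows of Eed, Suz12, Aebp2 and Mtf2, against 17.9% of all windows, and CCAAT was in windows of 6 genes (all but Ezh1 and Phf19), against 37.4%. Jarid2 and Mtf2 have 2 windows each and Aebp2 has 3. A member was counted where any of its windows matched, while the background is a share of single windows, so the measures are unlike. A match describes letters in a window and shows no binding.

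Several libraries and groups stood apart before any member was compared. The median cell had between 8122 and 10839.5 genes at 1 FPKM or more, depending on the group. Read counts were not analysed here, and depth is therefore unknown. The median FPKM sum of a cell was 1332430 and 1478620 in the female and male motor neuron cultures, against 862527 and 922930 in serum. It was 511794 at E4.5 and 995182 in male E5.5 cells. In 1 E3.5 cell the FPKM sum was 7897580, against a group median of 612768, and it had 4662 genes. That cell held the highest Ezh1, Suz12, Jarid2 and Mtf2 values of its group, so E3.5 means are given with and without it.

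Labels were set against markers. The female Epi culture kept naive markers, with Zfp42 at 72.5 FPKM against 0.0687 in the male Epi culture and 0.117 in the 7-passage culture, while the primed marker Fgf5 was at 14.1, 144.9 and 119.7 FPKM. Both motor neuron cultures expressed all 8 endoderm markers at a mean of 1 FPKM or more, summing to 285.3 (female) and 1058 (male) FPKM, against 3.78 and 3.91 in serum. Of the 23 E4.5 cells, 14 had a higher trophectoderm than pluripotency score (the mean log2(FPKM + 1) of the list), as had 11 of the 23 E3.5 cells. So had 17 of 41 7-passage, 10 of 63 male and 2 of 79 female Epi cells, and 33 of 39 female and 35 of 35 male motor neuron cells. In serum 1 of 68 female and 0 of 52 male cells had, and in 2i 0 of 60 and 0 of 51. Krt8, on the trophectoderm list, was at 639 FPKM in the 7-passage culture, while Cdx2 and Gata3 of that list were at 0.0204 and 2.56. In the female and male motor neuron cultures Krt8 was at 208 and 212 FPKM, Cdx2 at 0.575 and 0.244, and Gata3 at 7.82 and 0.984. A higher trophectoderm score in these cultures thus does not name trophectoderm cells. E5.5 cells carried the decidual gene Prl8a2 at 43.8 FPKM (female) and 2.95 (male). Of the 8 endoderm markers, 7 in female and 6 in male E5.5 cells had a mean of 1 FPKM or more. They summed to 441.7 and 146.8 FPKM, beside 127.8 at E3.5 and 133.2 at E4.5. The trophectoderm score was the higher in 6 of 20 female and 5 of 63 male E5.5 cells. The part of cells with such marker RNA in the levels below was not tested.

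**Figure D1:**
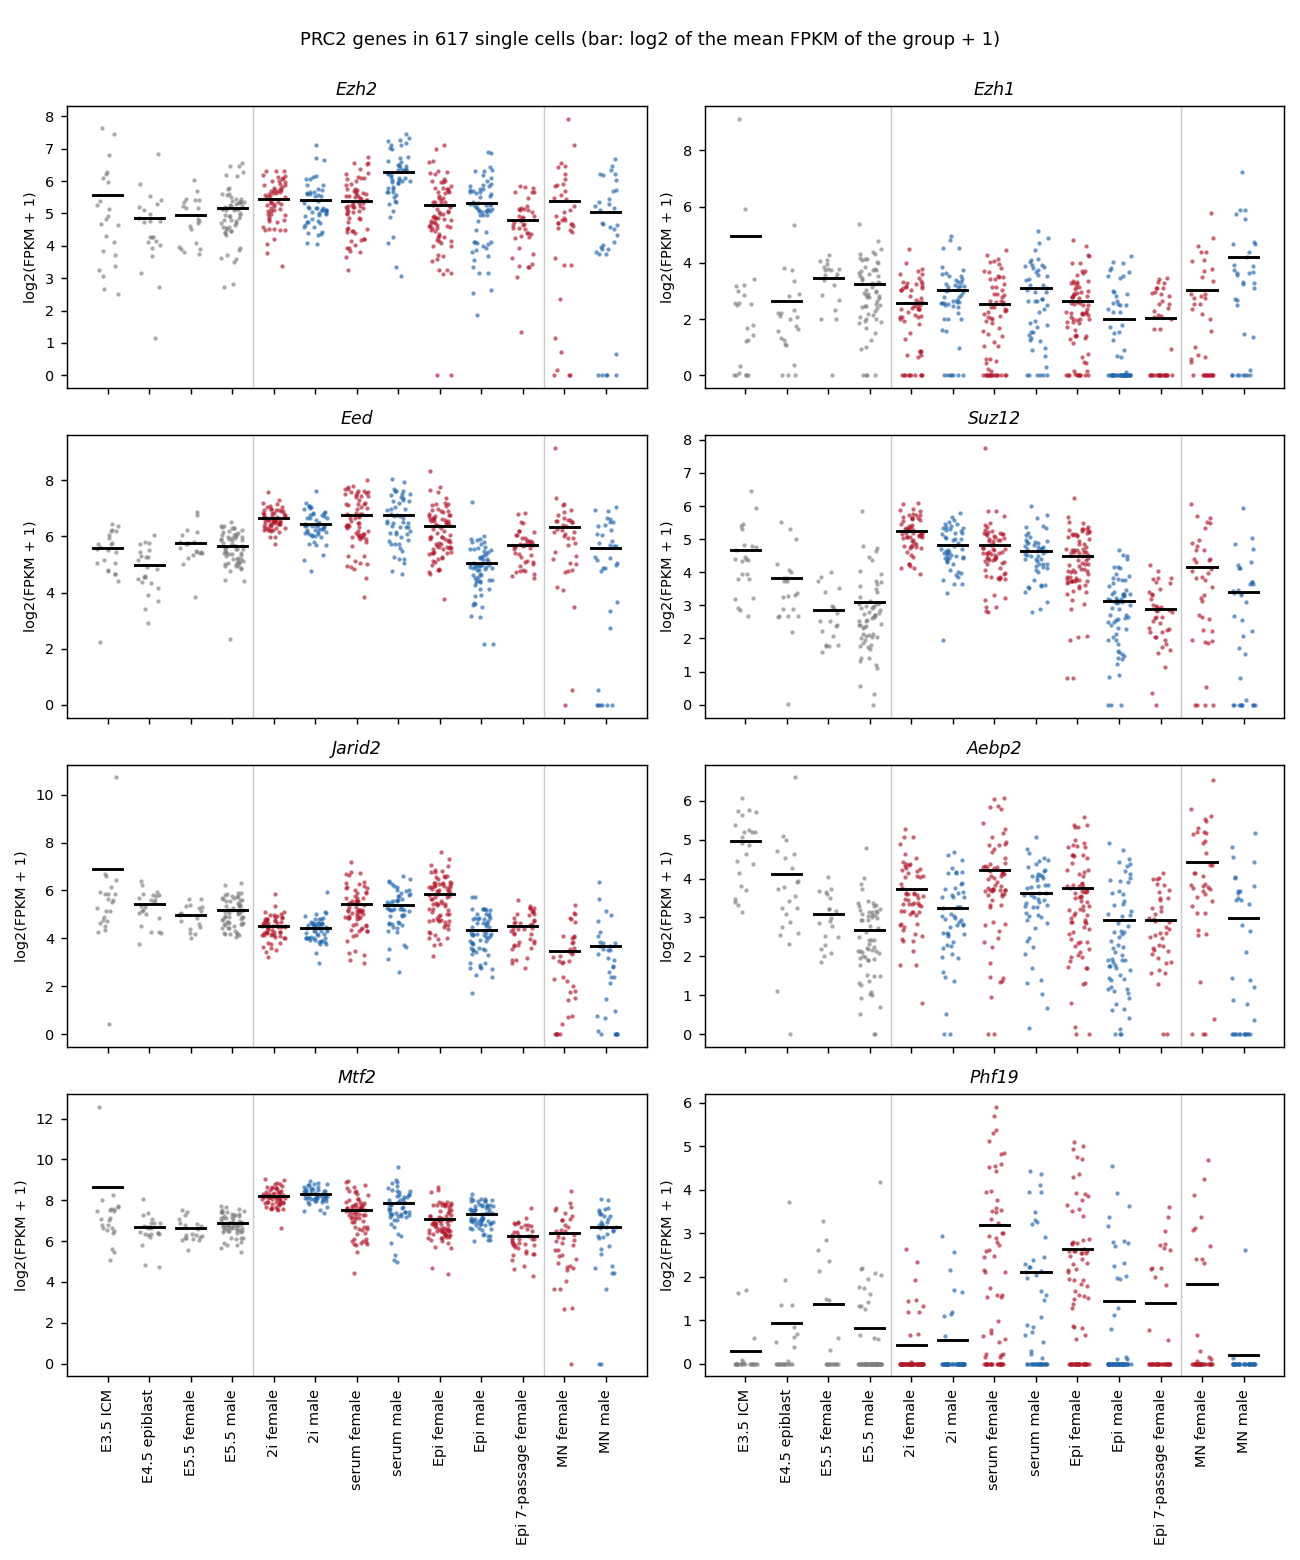
Each panel plots log2(FPKM + 1) of 1 PRC2 gene (vertical axis) in every cell of the 13 groups (horizontal axis). Grey points are embryo cells, red points female cultures and blue points male cultures, and a bar is log2 of the group's mean FPKM plus 1. Among the cultures Mtf2 lies highest in 2i, Phf19 is at 0 in most 2i cells, and cells with Eed at 0 occur only in the motor neuron (MN) cultures. The lone high E3.5 points of Ezh1, Jarid2 and Mtf2 are the same cell.

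In the 8 cultures of the first table, which leave out the 7-passage Epi cells, Mtf2 was the member with the highest level in every state, and Phf19 or Ezh1 the lowest. Mtf2 means ran from 84.1 FPKM in female motor neuron cells to 312 in male 2i cells. Eed means lay between 32.03 (male Epi) and 107 FPKM (female serum). Ezh2 stayed between 32.3 and 42.9 FPKM in these cultures other than male serum, where it was 76.2. Ezh1, the alternative enzyme, was between 3.03 (male Epi) and 17.5 FPKM (male motor neuron). Suz12 lay between 7.73 and 36.7, Jarid2 between 10.2 and 56.7, and Aebp2 between 6.68 and 20.4 FPKM. Phf19 ran from 0.148 FPKM in male motor neuron cells to 8.08 in female serum cells, the widest span of the 8 in ratio.

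Ordered by the mean of both lines, Mtf2 was the only member whose 4 states did not overlap between neighbours: 2i 304 FPKM (295.5 and 312 in the lines), serum 207 (183 and 230), Epi 146.5 (133.01 and 160.1) and motor neuron 93.8 (84.1 and 103.4). For Ezh1, Aebp2 and Phf19 the lines of every pair of neighbouring states overlapped. Eed stood in the order serum, 2i, motor neuron, Epi, and only its last pair overlapped. For Suz12 (2i, serum, Epi, motor neuron) only serum and Epi did not overlap. For Jarid2 (serum, Epi, 2i, motor neuron) only 2i and motor neuron did not. For Ezh2 (serum, 2i, Epi, motor neuron) only 2i and Epi did not. The share of all genes without such overlap was not computed, so these orders cannot be called particular to these genes.

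Between 2i, the naive ground state, and serum the accessory subunit Phf19 had the largest fitted difference of the 8 genes, and no member passed the test. Phf19 was at 0.346 ± 0.979 FPKM (SD, n = 60 cells) in female and 0.461 ± 1.29 (n = 51 cells) in male 2i cells. It was at 8.08 ± 12.8 (n = 68 cells) and 3.29 ± 5.27 (n = 52 cells) in serum cells of the same lines. The means of both serum cultures thus lay above both 2i means. The share of cells with at least 1 FPKM was 13.3% (exact 95% interval 5.94 to 24.6) and 15.7% (7.02 to 28.6) in 2i, against 55.9% (43.3 to 67.9) and 44.2% (30.5 to 58.7) in serum, intervals that cover counting error only. The fitted change was 2.15 on the log2(FPKM + 1) scale (SE 0.70, adjusted p = 0.351, limma with Benjamini-Hochberg adjustment).

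Jarid2, which helps bring PRC2 to its targets, was at 21.9 and 20.8 FPKM in female and male 2i cells and at 42.4 and 41.5 FPKM in serum. The lines agreed closely within each medium, and the fitted change was 0.94 (SE 0.47, adjusted p = 0.617, limma). The female minus male difference was 0.07 in 2i and 0.03 in serum, but 1.497 in Epi. The SE pools the spread between lines over all states of the fit, Epi among them, so it is not that of these 2 media alone. Mtf2, its counterpart in PRC2.1, was lower in serum in both lines, at 183 and 230 FPKM against 295.5 and 312, a change of -0.56 (SE 0.21, adjusted p = 0.436, limma). Mtf2 RNA per length was thus 13.5 and 15.1 times that of Jarid2 in 2i and 4.32 and 5.55 times in serum. Aebp2, a DNA-binding partner of Jarid2, was at 12.3 and 8.51 FPKM in 2i and at 17.6 and 11.4 in serum.

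The differences of the core genes were smaller. Eed was at 99.7 and 86.9 FPKM in 2i and at 107 and 106.4 in serum. Suz12 was at 36.7 and 27.2 FPKM in 2i and at 27.4 and 23.9 in serum. Ezh2 was at 42.9 and 41.7 FPKM in 2i, and serum gave 41.1 in the female but 76.2 in the male line. The male serum cells fell into 2 runs of cell numbers in the titles, with 86.1 FPKM in 39 cells against 46.3 FPKM in the 13 cells of the other run. What the runs stand for is not stated. Ezh1 differed by 0.03 (SE 0.49), with 4.94 and 7.21 FPKM in 2i and 4.86 and 7.64 in serum.

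By limma, 0 of 8 members were called higher and 0 lower in serum at an adjusted p under 0.05, where 0.00645% and 0.0129% of the 15504 genes tested were called. Without adjustment, 2 of the 8 (Mtf2 and Phf19) had a p under 0.05, as had 1549 of all genes. The median change was 0.30 over the 8 members and 0.00 over all genes. The fit had 1 culture per line and state and 4 residual degrees of freedom.

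**Figure D2:**
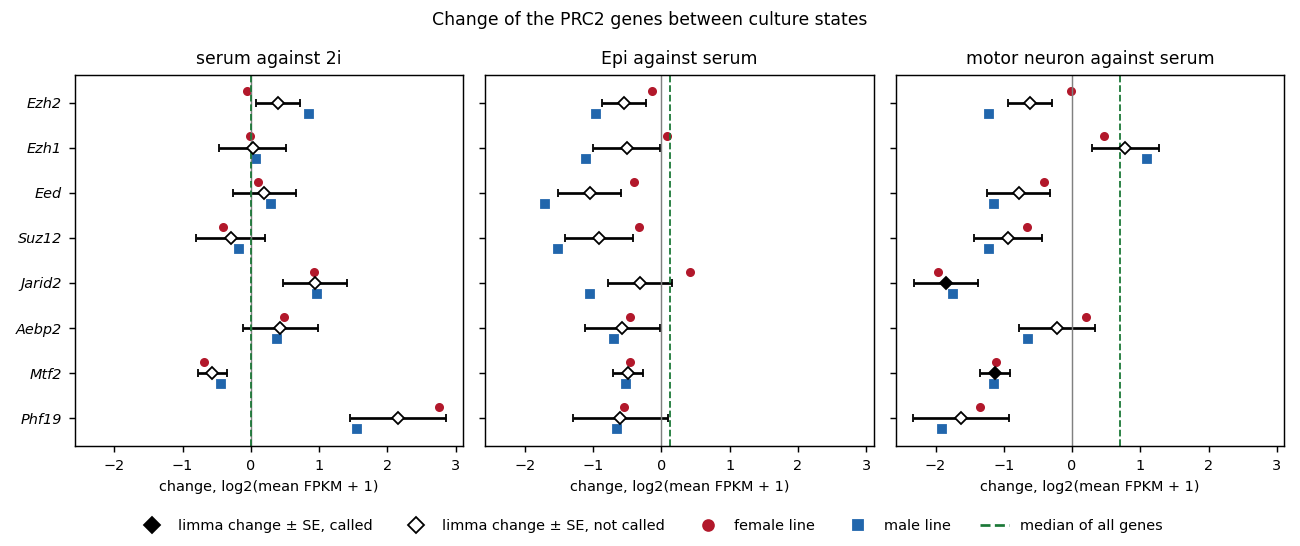
For each PRC2 gene (vertical axis), the 3 panels give the change in log2(mean FPKM + 1) (horizontal axis) for serum relative to 2i, and for Epi and motor neuron relative to serum. Diamonds with bars are the limma change ± SE, filled where called at an adjusted p under 0.05; circles and squares are the female and male line, and the dashed line is the median of all genes tested. Only Jarid2 and Mtf2 in the motor neuron panel are filled, and the lines lie farthest apart in the Epi panel.

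**Figure D3:**
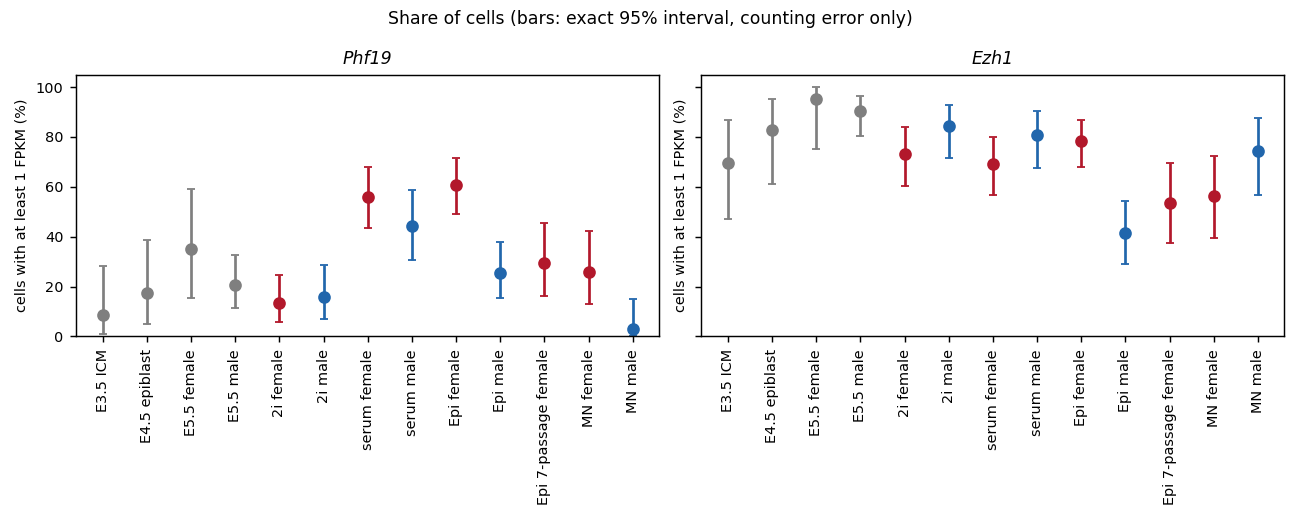
The share of cells with at least 1 FPKM (vertical axis, percent) is plotted for Phf19 and Ezh1 in the 13 groups (horizontal axis), with exact 95% intervals as bars. Phf19 is in 55.9% and 44.2% of serum cells and 60.8% of female Epi cells, and in 2.86% of male motor neuron cells; Ezh1 is lowest in male Epi cells, at 41.3%.

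All 8 members had a negative fitted change from serum to Epi, where 60.5% of all genes had a positive one, and none passed the test. The 8 changes rest on the same cultures and are not separate pieces of evidence. The female and male lines differed widely here. Suz12 was at 27.4 FPKM in female and 23.9 in male serum cells, and at 21.7 ± 12.9 FPKM (SD, n = 79 cells) in female against 7.73 ± 5.74 FPKM (n = 63 cells) in male Epi cells. Eed was at 107 and 106.4 FPKM in serum, and at 81.3 in female and 32.03 FPKM in male Epi cells. Jarid2 was at 42.4 and 41.5 FPKM in serum, and at 56.7 in female against 19.5 FPKM in male Epi cells, so its lines moved in opposite directions. The male Epi culture was the lowest of these 4 for each of the 3 genes.

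The 7-passage female Epi culture lay nearer to the male than to the first female culture for 6 of these 8 genes, in the difference of log2(mean FPKM + 1) without regard to sign, and for 5 with log2 values averaged over cells. Eed was the near tie, with differences of 0.65 from the male and -0.67 from the female culture. The table of the 7-passage culture was normalised separately, so this sets levels side by side across tables, with no test. The share of all genes nearer to the male culture was not computed, so the count cannot be called particular to these genes. Suz12 was at 6.44 ± 4.17 FPKM (SD, n = 41 cells) and Jarid2 at 21.7 ± 10.4 FPKM in it. Against the first female Epi culture all 8 members were lower, with differences of -0.45 (Ezh2) to -1.61 (Suz12) on the log2(FPKM + 1) scale, beside a median of 0.11 over 14280 genes. Against the male culture 4 were higher and 4 lower, with a difference of -1.10 for Mtf2. The 2 exceptions in likeness were Ezh2, at 26.8 FPKM against 37.1 and 38.7, and Mtf2, at 74.2 against 133.01 and 160.1, both lower than in either other Epi culture.

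The other 3 genes followed. Aebp2 was at 12.6, 6.68 and 6.68 FPKM in the female, male and 7-passage Epi cultures. Phf19 was at 5.21, 1.72 and 1.63 FPKM, with 60.8%, 25.4% and 29.3% of cells at 1 FPKM or more. Ezh1 was at 5.19, 3.03 and 3.11 FPKM. The first female Epi culture, the highest of the 3 in each of these genes, is also the culture with Zfp42 at 72.5 FPKM, whose part in these levels was not tested.

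**Figure D4:**
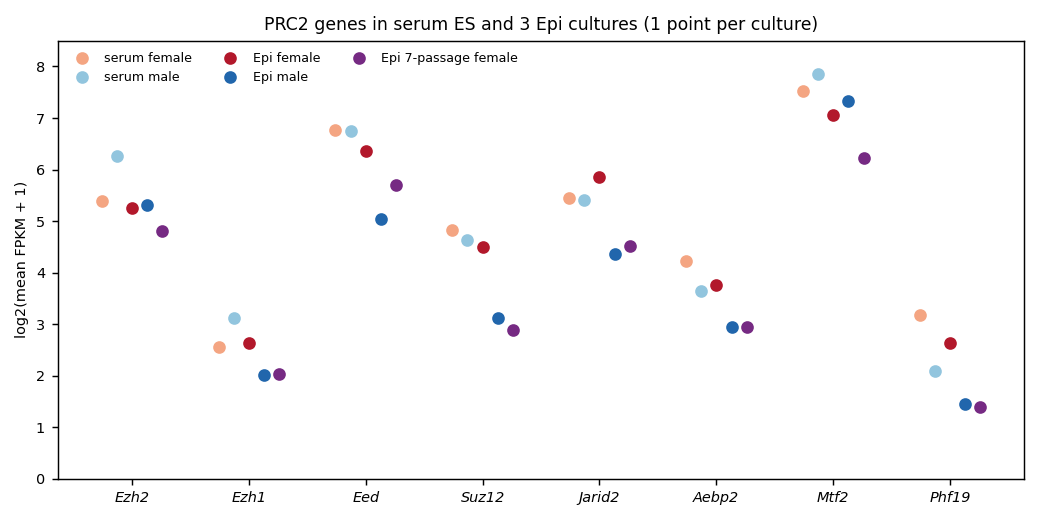
The log2 of the mean FPKM plus 1 (vertical axis) of each PRC2 gene (horizontal axis) is plotted for both serum ES cultures and the 3 Epi cultures, 1 point per culture. For Suz12, Jarid2, Aebp2, Ezh1 and Phf19 the male and the 7-passage Epi points lie together, below the first female Epi culture.

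By limma, 0 of 8 members were called higher and 0 lower in Epi than in serum, where 0.0322% and 0.00645% of 15504 genes were called. No member had an unadjusted p under 0.05, and 1000 of all genes had. The median change was -0.56 over the members and 0.12 over all genes. With the 7-passage culture taken instead of the first female Epi culture, 2 of 8 members were called lower, Suz12 (change -1.72, adjusted p = 0.0363) and Jarid2 (-0.99, adjusted p = 0.0498), and 0 higher, against a background of 2.58% lower and 2.95% higher of 15447 genes. That fit joins tables normalised separately. Jarid2 then sits at the threshold, and Eed, with a change of -1.38, had an adjusted p of 0.0642.

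In the motor neuron cultures the accessory subunits Jarid2 and Mtf2 fell. Jarid2 was at 42.4 FPKM in female and 41.5 in male serum cells, and at 10.2 ± 10.46 FPKM (SD, n = 39 cells) and 11.7 ± 16.5 (n = 35 cells) in motor neuron cells. Both motor neuron cultures were below every other culture, and the fitted change was -1.85 (SE 0.47, adjusted p = 0.0255, limma). Mtf2 was at 183 and 230 FPKM in serum, and at 84.1 ± 74.9 and 103.4 ± 68.4 FPKM in motor neuron cells, again below every other culture of that table, a change of -1.13 (SE 0.21, adjusted p = 0.0103, limma).

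By limma, 2 of 8 members were called lower and 0 higher, where 3.70% of 15504 genes were called lower and 32% higher. The median change was -0.86 over the members and 0.71 over all genes, and the sum of FPKM values per cell was higher in the motor neuron cultures. Relative to that median, Jarid2 changed by -2.56 and Mtf2 by -1.84. With upper-quartile scaling, which sets the median change to 0.00, 54.1% of the calls were higher in place of 89.6%, and with each cell rescaled to the same sum 65.5%. Ezh2 was then called lower too in both (-1.45, adjusted p = 0.0229 with upper-quartile scaling, where 12.4% of genes were called lower). With each cell rescaled, 1172 of 15273 genes were called lower. Ezh2 was also called lower with log2 values averaged over cells (-1.31, adjusted p = 0.0295, where 6.30% of genes were).

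The Jarid2 call was the less stable of the 2. It was lost in 6 of the 8 fits that left out 1 culture: either 2i culture, either serum culture or either motor neuron culture. It was also lost with no filter on low values and with only the higher run of title numbers, and the adjusted p reached 0.116. Mtf2 lost its call only without the male serum culture (adjusted p = 0.0707). In a fit over only the serum and motor neuron cultures both calls held.

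The other members were not called. Phf19 was at 8.08 and 3.29 FPKM in serum and at 2.56 and 0.148 in motor neuron cells, with 10 of 39 and 1 of 35 cells at 1 FPKM or more, a change of -1.63 (SE 0.70, adjusted p = 0.115, limma). With the line as a block its adjusted p was 0.0492, and with only the higher run of title numbers 0.0470. Suz12 was at 17.03 and 9.69 FPKM, a change of -0.94 (SE 0.50, adjusted p = 0.188). Eed was at 80.2 and 47.4 FPKM, a change of -0.78 (SE 0.46, adjusted p = 0.222), and was called lower with only the lower run of title numbers (-1.45, adjusted p = 0.0445). Ezh2 was at 40.5 and 32.3 FPKM, a change of -0.62 (SE 0.32, adjusted p = 0.179).

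Ezh1 was the only member with a positive fitted change, at 7.11 and 17.5 FPKM in motor neuron cells against 4.86 and 7.64 in serum. The change of 0.78 (SE 0.49, adjusted p = 0.246, limma) was 0.08 relative to the median of all genes and 0.01 with upper-quartile scaling. Aebp2 was higher in the female motor neuron culture (20.4 against 17.6 FPKM) and lower in the male (6.95 against 11.4).

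Within the motor neuron cultures Eed was lower in cells with a higher neuron score relative to their endoderm score. Cells were ranked by their neuron score minus their endoderm score. The neuron-like range, where the difference is above 0, held 25 of 39 female and 18 of 35 male cells, of which 2 and 0 were within 0.5 of the cut. Of the 14 and 17 cells of the endoderm-like range, 1 and 1 were. The median neuron score of the neuron-like range was 2.84 in the female and 8.83 in the male culture. Serum cells had median neuron scores of 1.49 (female) and 1.56 (male), also above their median endoderm scores of 0.10 and 0.11. The name thus stands for a range of a score, not for neurons. Spearman's rho between Eed and the difference was -0.46 (39 cells) and -0.59 (35 cells), given as a description, since the cells of a culture share their source. For Suz12 rho was -0.33 and -0.35, and for Ezh2 0.10 and 0.04. It was 0.10 and 0.32 for Jarid2, -0.04 and 0.38 for Mtf2, and 0.02 and -0.20 for Aebp2. For Ezh1 it was -0.08 and -0.09, and for Phf19 0.05 and -0.07.

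With the cut at 0, Eed averaged 77.2 ± 110 FPKM (SD) in female neuron-like cells and 85.5 ± 32.5 in endoderm-like ones. The medians were 59.9 and 85.98 FPKM. The female neuron-like range itself was uneven, with 18 cells at differences of 0 to 4 and 7 cells above 4, a cut chosen after the values were seen. In those 7 cells Eed was at 0 to 32.4 FPKM, with a median of 25.7. In the other 18 it was at 15.9 to 568, with a median of 73.1, and in the 14 endoderm-like cells at 38.5 to 141.9, with a median of 85.98. The 7 female cells above that later cut were thus all below every endoderm-like cell in Eed. The female culture also held pluripotency RNA, with Pou5f1 at 52.5 and Nanog at 6.36 FPKM against 0.447 and 0.199 in the male culture, and the median pluripotency score was 1.19 in its neuron-like and 0.41 in its endoderm-like cells. The part of these cells in the Eed levels was not tested.

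The male culture had 16 cells above 4, with Eed at 0 to 56.1 FPKM and a median of 7.42, against 26.1 to 130 and a median of 73.1 in the 17 endoderm-like cells. These ranges overlapped, but Eed was below 1 FPKM in 7 of the 16 and in none of the 17. Ezh2 did not go the same way: its median in the cells above 4 was 36.6 FPKM (7 female cells) and 29.9 FPKM (16 male cells), and it was 27.4 and 22.96 FPKM in the endoderm-like cells. The median number of genes in the cells above 4 was 9476 and 9693, more than the 8920 and 8964 of the endoderm-like cells. The median proliferation score was lower, at 2.203 and 3.34 against 6.91 and 7.04. The part of cell division in the Eed levels was not tested.

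**Figure D5:**
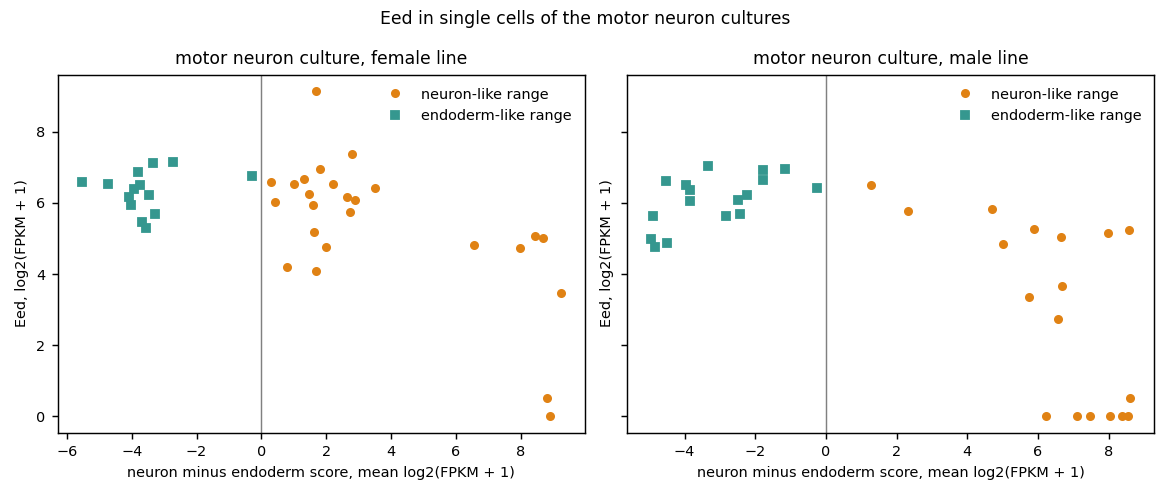
Each point is a cell of the female (left) or male (right) motor neuron culture, with its neuron minus endoderm score in mean log2(FPKM + 1) on the horizontal axis and Eed in log2(FPKM + 1) on the vertical axis. Orange circles are the neuron-like and green squares the endoderm-like range. Cells without Eed lie at differences above 4, and in every endoderm-like cell Eed is at 26.1 FPKM or more.

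The genes called lower were low on both sides of that split. Jarid2 averaged 10.9 and 14.9 FPKM in the neuron-like cells of the female and male culture and 8.79 and 8.25 FPKM in the endoderm-like cells, all below both serum means. Mtf2 averaged 81.7 and 120.98 FPKM in neuron-like and 88.4 and 84.8 in endoderm-like cells, likewise below both serum means. Ezh1 averaged 7.13 and 10.7 FPKM in neuron-like and 7.08 and 24.6 in endoderm-like cells, with its higher male mean in the endoderm-like range.

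RNA of the 3 core genes Ezh2, Eed and Suz12 was found together at 1 FPKM or more in every cell of both 2i and both serum cultures. The share was 97.5% in female and 92.1% in male Epi cells. It was 76.9% in female (30 of 39, exact 95% interval 60.7 to 88.9) and 48.6% in male motor neuron cells (17 of 35, 31.4 to 66.01), the lowest of the 13 groups. The median cell had 9313 genes in the female and 9234 in the male motor neuron culture, against 9443.5 and 9645 in serum.

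The balance of the 2 enzymes leaned to Ezh2 in every group. Ezh2 RNA per length was between 5.70 and 12.8 times that of Ezh1 in 7 of the 8 cultures, and 1.85 times in male motor neuron cells. Ezh1 exceeded Ezh2 in 0 of 60 and 0 of 51 cells in 2i (exact upper limits 5.96% and 6.98%), in 4 of 39 female motor neuron cells and in 10 of 35 male ones (28.6%, exact 95% interval 14.6 to 46.3).

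In the embryo the members were compared by stage with no test, since each stage was taken as 1 sample. Between E3.5 and E4.5, in the same table, 7 of 8 group means were lower and Phf19 was higher. The median difference was -0.85 over the members and -0.08 over 11893 genes on the log2(FPKM + 1) scale, and -0.51 over the members without the 1 cell of very high FPKM sum. Leaving out that cell moved Ezh1 from -2.31 to -0.12, Jarid2 from -1.46 to -0.11 and Mtf2 from -1.97 to -0.47. Those 3 mean differences rested mostly on that cell.

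Medians over cells are less moved by a single cell. Aebp2 had a median of 28.95 FPKM at E3.5 and 10.7 at E4.5. Suz12 had 19.9 and 9.40, Eed 46.3 and 27.6, and Mtf2 135.7 and 97.7 FPKM. Jarid2 (44.7 and 40.2), Ezh2 (27.4 and 25.7) and Ezh1 (2.46 and 3.05) had like medians at both stages, and Phf19 had a median of 0 at both. Without the cell, the E3.5 mean of Ezh1 was 5.78 ± 12.3 FPKM (SD, n = 22 cells) in place of 29.9, and that of Mtf2 141.1 ± 70.1 in place of 400.2.

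At E5.5, in a table normalised separately, Suz12 averaged 6.19 ± 4.00 FPKM (SD, n = 20 cells) in female and 7.59 ± 8.65 (n = 63 cells) in male cells, against 13.1 ± 11.0 (n = 23 cells) at E4.5. Aebp2 averaged 7.43 and 5.37 FPKM against 16.3. Eed averaged 53.95 and 49.1 against 30.6, and Ezh1 10.0 and 8.60 against 5.22. Ezh1 was found in 19 of 20 and 57 of 63 E5.5 cells, above its share in every culture. The median E5.5 cell also had more genes at 1 FPKM or more, 10839.5 (female) and 10590 (male), against 9234 to 10409 in the cultures. The part of this in the Ezh1 share was not tested. The median over all genes was 1.02 (female) and 0.99 (male) higher at E5.5, and each of the 8 members was below that median in both sexes. With each cell rescaled to the same sum, Eed differed by 0.01 and -0.07 and Ezh1 by 0.23 and 0.05, beside 0.82 and 0.63 for Ezh1 as deposited. Ezh2 turned from 0.08 and 0.30 to -0.83 and -0.56, while the differences of Suz12 were -1.60 and -1.31 and those of Aebp2 -1.74 and -2.11.

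The low Suz12 level of E5.5 cells was close to that of the male and 7-passage Epi cultures, at 7.73 and 6.44 FPKM. The levels of Aebp2 in these 4 groups also lay together, between 5.37 and 7.43 FPKM. These are levels from 3 tables normalised separately, and no test was made.

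Of 34 other Polycomb genes, 33 passed the filter of a mean of 1 FPKM (all but Rybp). Ezhip is listed in the annotation by an older symbol, AU022751. In serum against 2i and in Epi against serum, 0 of the 33 were called in either direction. In motor neuron cells 13 were called higher and 0 lower, against 32% and 3.70% of all genes, and their median change was 0.89 beside 0.71 over all genes. With upper-quartile scaling 8 were called higher and 3 lower (Rbbp4, Phc1 and L3mbtl2), beside 2271 higher and 1924 lower of all 15504 genes. With each cell rescaled, 6 were called higher and 1 lower, beside 2229 and 1172 of all 15273 genes.

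The 3 genes with the largest rises belong to Polycomb repressive complex 1, which ubiquitylates histone H2A. Cbx8, a chromodomain reader, was at 0.870 and 0.349 FPKM in female and male serum cells and at 8.87 and 23.5 in motor neuron cells (change 3.29, SE 0.50, adjusted p = 0.00566, limma). Pcgf5, a RING1 partner, was at 9.10 and 3.74 FPKM and rose to 71.1 and 48.4 (3.11, SE 0.43, adjusted p = 0.00454, limma). Auts2, a partner of PRC1 complexes with Pcgf3 or Pcgf5, was at 2.27 and 4.10 FPKM and rose to 18.1 and 48.002 (2.91, SE 0.62, adjusted p = 0.0152, limma), a call that held in 15 of 20 alternatives. It was lost with each cell rescaled (2.19, adjusted p = 0.0504), with only the higher run of title numbers (adjusted p = 0.0523), and without either serum culture or the male motor neuron culture (adjusted p up to 0.0952), and its change was 1.49 with log2 values averaged over cells.

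The histone-binding core subunits Rbbp4 and Rbbp7, shared with other chromatin complexes, were abundant beside the 8 genes above. Rbbp4 was between 165 and 302 FPKM in the 8 cultures and Rbbp7 between 244.8 and 461, and neither was called in the main fit. With upper-quartile scaling the fitted direction of Rbbp7 turned in each comparison, and that of Rbbp4 only in Epi against serum. In motor neuron cells Rbbp4 changed by -0.29, by -0.85 with each cell rescaled and by -1.14 with upper-quartile scaling. With the last it was called lower (adjusted p = 0.0168, limma). Kdm6a, an X-linked demethylase of H3K27, was between 4.65 and 8.49 FPKM and was not called. Kdm6b, the other demethylase, was at 8.14 and 7.80 FPKM in serum and at 24.6 and 19.6 in motor neuron cells (1.35, SE 0.42, adjusted p = 0.0478, limma), a call that held in 9 of 20 alternatives and in 2 of the 8 fits without 1 culture (those without an Epi culture), and was lost, for example, with upper-quartile scaling (0.55, adjusted p = 0.372).

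Comparisons of the female with the male culture had 1 sample per arm and no test. In 2i the 8 members differed by -0.47 (Ezh1) to 0.49 (Aebp2) on the log2(FPKM + 1) scale, female minus male. In Epi the span was -0.27 (Mtf2) to 1.497 (Jarid2), with Suz12 at 1.38 and Eed at 1.32. Aebp2 was higher in the female of all 4 states, by 0.49 to 1.43, and at E5.5 by 0.41. Mtf2 was lower in the female of all 4 states, with differences of -0.08 to -0.33, and of -0.24 at E5.5. The female E5.5 cells came from other parents and another table than the cultures.

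Cell titles fell into a lower and a higher run of numbers in 7 of the 8 cultures, and members differed between runs of 1 culture by up to 1.54 on the log2(FPKM + 1) scale (Ezh1 in female motor neuron cells, 10.4 against 2.90 FPKM). Suz12 was higher in the lower run in 5 of 7 cultures, for example 45.1 against 28.3 FPKM in female 2i. Eed was 164 against 87.3 FPKM in male serum. Jarid2 was lower in the lower run in both motor neuron cultures, at 6.94 against 14.3 and 6.48 against 18.6 FPKM, and both runs lay below the serum means.

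For each member the 3 genes most alike over the 8 cultures were found by Pearson's r of log2(mean FPKM + 1) among 9920 genes. With 8 points and so many genes high values are frequent, so this is a description. Eed was nearest to Dnajc21 (0.99), Ccl9 (0.98) and Tomm5 (0.98), and Suz12 to Klf2 (0.99), a naive pluripotency factor, Mylpf (0.98) and Ipo11 (0.98). Jarid2 was nearest to Tmem238 (0.98), Rcor2 (0.97) and Bop1 (0.97). Ezh1 was nearest to Mtfmt, Hadhb and Flad1 (0.99, 0.98 and 0.98), Aebp2 to Lage3, Pdcd7 and Hnrnpu (0.96, 0.96 and 0.95). Mtf2 was nearest to Saal1, Zfp961 and Naa50 (0.95, 0.94 and 0.94), and Phf19 to Chchd5, Gm25187 and Mapkapk3 (0.96, 0.94 and 0.94). The 3 genes nearest to Ezh2 (Mir6907, Mir6917 and Gm27399, 0.94 each) are short RNA genes with a value above 0 in 1 or 2 cells of a single culture, male serum.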

How the data were processed

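The authors deposited FPKM for every gene in single cells, in 4 tables that were normalised separately; the submitters' processing notes name STAR 2.4.1, Cufflinks, Cuffnorm 2.2.1 and mm10. How strand and reads shared between genes were handled is not given in the sources used here. A low line stood in the exponent of 356 values, which were read as numbers (largest 9.7552e-05 FPKM). All per-cell columns were mapped to a labelled cell.

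FPKM was averaged over the cells of a culture, and log2(mean + 1) of the 8 cultures of the first table was fitted by state with limma 3.58.1 (trend, R 4.3.3) over the 15504 genes that averaged 1 FPKM or more. Calls needed a Benjamini-Hochberg adjusted p under 0.05. Nothing in the labels shows more than 1 culture per line and state, so p-values measure the spread between 2 lines, pooled over all states of the fit. The fit was tested on simulated data. Embryo stages, the 7-passage culture and the sexes have 1 sample per arm and no test. Named were the 8 members, Rbbp4, Rbbp7, Kdm6a and Kdm6b in each comparison, and the 3 other Polycomb genes with the largest change among those called. Members and lists were chosen with earlier results of these data known. Cultures of the same sex come from the same cell line in every state, so they could be paired by line. The main fit did not use this pairing, and the line as a block was an alternative. The female minus male differences of any 2 states correlated at r = 0.0605 to 0.163 across 15504 genes, which are not independent replicates. Alternatives were other pseudocounts, filters, scalings, averages, runs of titles, designs and left-out cultures, and, added after seeing the data, leaving out 1 E3.5 cell.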

Additional observations from a re-analysis of the deposited data

Results flagged for a closer look

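In 5 cases the female and the male line, with 1 culture per state each, moved in opposite directions under the same comparison. Each value is a difference in log2(mean FPKM + 1), and none of the differences between lines was tested. Ezh2, the main methyltransferase, differed between serum and 2i by -0.062 in the female and 0.85 in the male line. Ezh1, the alternative enzyme, differed there by -0.019 and 0.073, and between Epi and serum by 0.078 and -1.10. Jarid2, the PRC2.2 subunit, differed between Epi and serum by 0.41 in the female and -1.05 in the male line. Aebp2, its partner, differed between motor neuron and serum cells by 0.20 and -0.64.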

How the results depend on the processing

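The count of PRC2 genes lower in motor neuron cells (2) was 1 with no filter on low values and 0 to 2 with 1 culture left out. It was 3 with only the lower run of titles (Eed added) and 2 with only the higher run (Mtf2 and Phf19, without Jarid2). Over all genes, 388 of 33861 were called lower in motor neuron cells with no filter. With the lower run 448 of 15323 were, and with the higher run 548 of 15408. The count of other Polycomb genes called there (13) was 6 with the filter at 5 FPKM, 7 with each cell rescaled to the same sum, and 3 to 16 with 1 culture left out. With the 7-passage culture taken instead of the first female Epi culture, 2 PRC2 genes and 3 other Polycomb genes were called in Epi, where 0 were. Over all genes, 456 were then called higher and 398 lower of 15447. With the line as a replicate block, 3 PRC2 genes were lower in motor neuron cells (Phf19 added) and 15 other Polycomb genes were called. Over all genes, 5269 were then called higher and 679 lower of 15504. The filter at 5 FPKM gave 3429 higher and 493 lower of 9966 genes there, and rescaled cells 2229 and 1172 of 15273. Over all genes, serum against 2i gave 1 higher and 2 lower calls, and 14 and 217 with log2 values averaged over cells. With only the 4 cultures compared it gave 158 higher calls, and the lower calls outnumbered these.

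None of the changes that turned direction had been called, and the cause was not tested. With log2 values averaged over cells, serum against 2i gave -0.14 for Ezh1 and -0.17 for Kdm6b. With rescaled cells Rbbp7 was 0.054 in serum against 2i and -0.12 in motor neuron cells, and Kdm6a was 0.030 in Epi. With upper-quartile scaling Rbbp7 was 0.037, -0.12 and -0.44 in the 3 comparisons, and Rbbp4 was -0.14 in Epi. With only the lower run of titles, serum against 2i gave Ezh2 -0.13, Ezh1 -0.093, Rbbp7 0.027 and Kdm6b -0.17, Epi gave Ezh2 0.090 and Kdm6a 0.030, and motor neuron cells gave Kdm6a 0.057. With only the higher run, Rbbp4 was 0.021 in serum against 2i and -0.016 in Epi, Rbbp7 was -0.12 in Epi, and Aebp2 was 0.072 in motor neuron cells. With the 7-passage culture Rbbp7 was -0.18 in Epi.

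With 1 culture left out, serum against 2i ranged from -0.25 to 0.31 for Ezh1, -0.042 to 0.83 for Ezh2, -0.44 to 0.41 for Rbbp7, -0.26 to 0.29 for Kdm6b, -0.25 to 0.072 for Rbbp4 and -0.16 to 0.52 for Kdm6a. Epi against serum ranged from -1.07 to 0.43 for Jarid2, -0.24 to 0.28 for Rbbp4, -0.34 to 0.13 for Kdm6a and -0.38 to 0.46 for Rbbp7. Motor neuron against serum ranged from -0.94 to 0.49 for Aebp2, -0.26 to 0.20 for Kdm6a and -0.59 to 0.014 for Rbbp4. A lone culture was assumed to vary like the other states. Read depth per cell was unknown, so a value of 0 cannot be told from RNA missed in a cell.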

Other observations

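Across the cells of a group, Mtf2 and the proliferation score had a Spearman's rho above 0 in 12 of 13 groups, between -0.21 and 0.50 with a median of 0.33. For Eed rho was above 0 in 11 groups, between -0.05 and 0.63 with a median of 0.18. For Suz12 it was above 0 in 4 groups, between -0.56 and 0.37. These are descriptions, since cells of a group share their culture or stage and both measures share the cell's library.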
